A study of Mus musculus with 8 samples.

Results

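The LIM, SIX-class, Iroquois, POU and paired-like homeobox genes, with the Prospero gene Prox1, were followed in single nuclei of adult mouse midbrain. The set held 42 genes listed by symbol, of which 40 were among the 23481 genes of the deposited table, and the other 2, Phox2a and Drgx, were not analysed here. The nuclei came from mice of the strain given as DatCreEed, a name that joins a Cre driven by the dopamine transporter gene with Eed, a core subunit of Polycomb repressive complex 2 (PRC2). One group was labelled wt and the other PRC2 mutant, called mutant below. Each was a pool of 3 mice, 2 females and 1 male, aged 8 months. The nuclei of each pool were sorted by flow cytometry and made into 1 library with 10x Chromium Single Cell chemistry, version 3. The 4 sequencing lanes of each library are merged in the table, so each genotype is 1 library of 1 pool. Whether the wt mice carried the Cre, and whether and which exons of Eed were removed in the mutant, were not stated in the labels. The dopamine transporter driver limits recombination to cells that have used that gene. Genotype, pool and library preparation cannot be told apart, no test between genotypes was possible, and every interval below is a 95% interval that covers counting error only.

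Homeobox genes encode DNA-binding transcription factors that set regional and neuronal identity during development. LIM and Islet factors specify motor neurons and interneurons, SIX-class and Iroquois factors pattern the eye, forebrain and neural tube, POU factors act in neural progenitors and sensory neurons, and paired-like factors shape limb, face, pituitary and hypothalamus. In most adult tissues the unused members of these families lie in chromatin that carries the methyl mark PRC2 places on histone H3, and are silent.

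The table held unique molecular identifier (UMI) counts of 1772 wt and 3968 mutant nuclei, in all 46540890 and 88201326 UMIs. Nuclei with at least 5 UMIs of Th, Slc6a3, Slc18a2 and Ddc per 10000 were taken as dopamine nuclei and the rest as other nuclei, which gave 1320 and 452 nuclei in wt and 2875 and 1093 in mutant. Median depth was 24257.5 UMIs in wt and 19023 in mutant dopamine nuclei, and 12471.5 and 14650 in other nuclei. The dopamine label held for a marker that the split did not use: En1, a homeobox gene of midbrain dopamine neurons outside the list, stood at 75.1 UMIs per 1000000 (counts scaled to that total, CPM) in wt dopamine and 7.82 CPM in wt other nuclei. In mutant dopamine nuclei En1 was at 29.3 CPM. Of the 13 dopamine markers 5 were lower in mutant dopamine nuclei and none higher, and 3 of those 5, Th, Slc6a3 and Slc18a2, belong to the score that defined the class. Eed itself stood at 21.4 CPM in wt and 41.3 CPM in mutant dopamine nuclei, which checks no label, since 3′ tags can lie outside a deleted part. The 2 libraries share 4 nuclear barcodes. Levels below are CPM of a class's summed UMIs, a fold is a ratio of these, and a gene was called higher or lower when (mutant + 1)/(wt + 1) passed 2-fold with at least 10 UMIs in the class. Because UMIs were summed, fewer nuclei with a gene and less RNA per nucleus are not separated. Shares of nuclei with a UMI do not separate them at low counts, where such a share follows the level. Unless a depth is named, these shares are of nuclei as deposited, which were deeper in wt among dopamine nuclei.

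In dopamine nuclei 23 of the 40 genes were higher in mutant and 2, Pou3f2 and Uncx, were lower. Among all 20074 genes with at least 10 UMIs, 1.73% were higher and 0.717% lower by the same rule. The members were chosen with earlier results of these data known. Any gap between them and all genes, here and below, is therefore a description and no test. The median log2 difference was 1.42 over the 38 members measured and 0.02 over all genes. By family, the higher group held 9 of 10 LIM genes, 3 of 4 SIX-class genes, 3 of 6 Iroquois genes, 2 of 7 POU genes, 5 of 12 paired-like genes and Prox1. In wt dopamine nuclei 28 members stood under 1 CPM, and 17 of the 26 of these with enough UMIs were called higher, against 3.9% of all genes that low in wt. At 5 CPM or more in wt stood 4 members (Pou3f2, Pou3f3, Uncx and Prox1), as did 45.2% of all genes, and of these Pou3f3 alone stayed within 2-fold. Of the 40 members 8 were under 1 CPM in both libraries, as were 36.5% of all genes. With a constant of 5 CPM in place of 1, which weighs down low genes, 13 members remained higher and 1 lower. Of all genes, 0.777% and 0.244% did so. Within nuclei of 10 to under 20 dopamine tags per 10000, 20 of the 36 members measured were higher and 1 lower. All genes there were higher in 2.01% and lower in 2.45%, so the 1 lower member lies near the share of all genes.

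**Figure D1:**
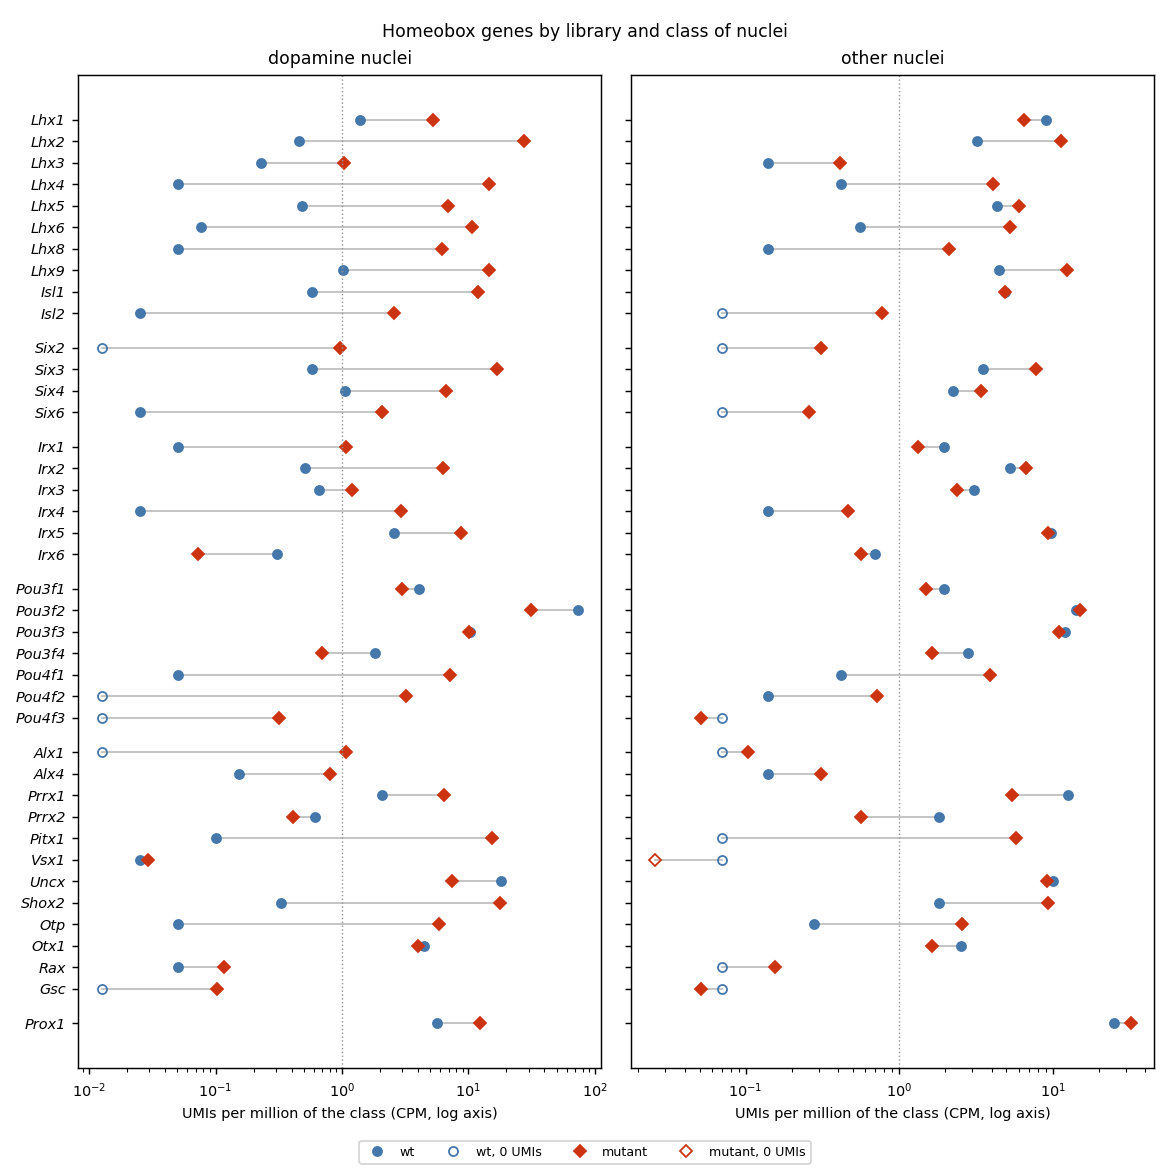
Level of each of the 40 genes in CPM (log axis) in dopamine nuclei (left) and other nuclei (right), 1 point per library, grouped by family; open symbols mark 0 UMIs and are drawn at the level of 0.5 of a UMI. In dopamine nuclei 23 genes lie at higher levels in mutant, whereas Pou3f2 and Uncx lie lower, and in other nuclei the wt level of 19 of these 23 genes is above that in dopamine nuclei. The choice of the 23 by their levels in dopamine nuclei favours that last count.

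Promoter sequences are given here for 5 genes on which the results turn: 3 that were near silent in wt and higher in mutant, 1 that was high in wt and lower in mutant, and its paralog that kept its level. Each is the 250 bases before the RefSeq start in GRCm38.p6, 5′ to 3′ on the gene's strand, with every CG dinucleotide, the substrate of DNA methylation and the base step that marks CpG islands, in capitals. Lhx2 lies at chr2:38339031-38339280 on the plus strand with 25 CGs, Shox2 at chr3:66981772-66982021 on the minus strand with 11, and Pou4f1 at chr14:104468000-104468249 on the minus strand with 47. Pou3f2 lies at chr4:22488367-22488616 on the minus strand with 18, and Pou3f3 at chr1:42695518-42695767 on the plus strand with 15.
Lhx2: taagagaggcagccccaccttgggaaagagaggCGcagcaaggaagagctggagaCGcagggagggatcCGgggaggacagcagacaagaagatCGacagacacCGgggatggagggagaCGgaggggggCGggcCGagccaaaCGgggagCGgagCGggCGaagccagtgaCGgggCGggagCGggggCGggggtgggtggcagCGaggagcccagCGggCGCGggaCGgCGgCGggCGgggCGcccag
Shox2: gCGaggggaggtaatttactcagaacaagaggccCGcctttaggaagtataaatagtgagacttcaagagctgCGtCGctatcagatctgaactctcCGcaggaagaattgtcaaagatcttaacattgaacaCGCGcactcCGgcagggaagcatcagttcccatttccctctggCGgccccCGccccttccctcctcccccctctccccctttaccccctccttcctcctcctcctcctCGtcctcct
Pou4f1: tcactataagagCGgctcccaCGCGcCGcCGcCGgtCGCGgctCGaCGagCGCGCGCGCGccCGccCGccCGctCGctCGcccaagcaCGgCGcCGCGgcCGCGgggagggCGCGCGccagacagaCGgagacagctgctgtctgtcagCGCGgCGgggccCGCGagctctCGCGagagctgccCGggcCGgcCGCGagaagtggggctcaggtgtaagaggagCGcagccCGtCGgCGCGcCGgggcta
Pou3f2: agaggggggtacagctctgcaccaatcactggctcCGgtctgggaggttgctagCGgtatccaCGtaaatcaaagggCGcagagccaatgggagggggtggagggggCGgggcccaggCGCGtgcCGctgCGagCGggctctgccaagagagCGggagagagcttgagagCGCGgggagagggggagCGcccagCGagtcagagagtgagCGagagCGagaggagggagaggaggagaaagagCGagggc
Pou3f3: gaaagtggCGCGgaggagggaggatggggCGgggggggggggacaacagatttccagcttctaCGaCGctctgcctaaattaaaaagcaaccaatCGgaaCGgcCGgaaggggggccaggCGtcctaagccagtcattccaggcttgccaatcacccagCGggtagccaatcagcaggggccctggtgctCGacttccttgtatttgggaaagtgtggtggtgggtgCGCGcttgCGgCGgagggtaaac
Of the 23 higher members 19 (82.6%) had a RefSeq promoter window, and 14 of the 19 (73.7%) had more CGs than 0.6 times the number expected from their base composition, against 53.0% of the 15921 genes of the table with a window. The others included Lhx8, at 0.241 times the expected number, and Lhx9, at 0.261. Over all members with a window the share above that limit was 22 of 29 (75.9%), near that of the higher members. Among other genes higher in mutant dopamine nuclei it was 55.4% of 204 windows. Over all members the windows covered 29 of 40 (72.5%), under 80%, so the check is void for the whole set, and windows were found for 67.8% of all genes. The letters TAATTA, a core that many homeodomains bind, searched on both strands, occurred in 1 of the 19 windows and in 4.03% of all windows. A match is a string of letters and not a bound site.

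The LIM homeodomain gene Lhx2 had the highest log2 difference of the 40 genes, 4.30. Lhx2, a factor of cortex and eye (mm10, chromosome 2, 38339281 to 38369733), gave 18 UMIs, 0.457 CPM, in wt dopamine nuclei and 1910 UMIs, 27.8 CPM, in mutant, a 60.8-fold difference (38.4 to 103). Of the dopamine nuclei, 0.833% in wt and 39.2% in mutant held a UMI of it. Lhx4, which acts in the pituitary and in motor neurons (chromosome 1, 155698031 to 155751684), gave 2 UMIs in wt and 994, or 14.5 CPM, in mutant, a ratio of 285 with an interval of 78.6 to 2354. The 2 interneuron and cholinergic factors of the ventral forebrain followed: Lhx6, with 3 UMIs in wt, reached 10.7 CPM in mutant (ratio 141, interval 47.9 to 683), and Lhx8, with 2 UMIs, reached 6.20 CPM (ratio 122, interval 33.6 to 1011). Each of these 4 was close to absent from wt dopamine nuclei.

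Lhx9, used in thalamus and spinal commissural neurons, was at 1.02 CPM in wt and 14.7 CPM in mutant dopamine nuclei, 14.5-fold higher (10.5 to 20.4). Lhx5 and Lhx1, a paralogous pair of inhibitory interneurons, were at 0.482 and 1.40 CPM in wt and at 6.90 and 5.25 CPM in mutant, 14.3-fold (9.05 to 24.0) and 3.76-fold (2.83 to 5.09) higher. Isl1, a motor neuron factor (chromosome 13, 116298281 to 116309689), was at 0.584 CPM in wt and 11.9 CPM in mutant, 20.3-fold higher (13.4 to 32.2), while its paralog Isl2 gave 1 UMI in wt and 178, or 2.59 CPM, in mutant. Lhx3, the partner of Lhx4 in motor neurons, was the 1 LIM gene not called: it gave 9 UMIs in wt and 71 in mutant, or 0.229 and 1.03 CPM, a ratio of 4.52 (2.25 to 10.3) whose log2 difference with the constant was 0.73. Lhx1os, an antisense noncoding gene beside Lhx1, went from 2.01 to 13.7 CPM. Whether counting used the strand was not stated, so reads of overlapping sense and antisense genes at Lhx1, Six3, Pou3f3 and Prox1 cannot be told apart.

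Of the 4 SIX-class genes 3 were higher. Six3, which acts with Six6 in forebrain and eye (chromosome 17, 85613608 to 85629302), was at 0.584 CPM in wt and 16.8 CPM in mutant dopamine nuclei, 28.8-fold higher (19.1 to 45.7). Six6 gave 1 UMI in wt and 142, or 2.07 CPM, in mutant. Six4, a muscle and sensory placode factor, went from 1.07 to 6.604 CPM, 6.19-fold higher (4.51 to 8.71). Six2, a factor of kidney progenitors that lies near Six3 on chromosome 17 (85684277 to 85688274), gave 0 UMIs in wt and 66 in mutant, which is at least 12.6-fold higher when wt is set to 3 UMIs over the class, but with a log2 difference of 0.97 it stayed just under the rule.

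The Iroquois genes lie in 2 clusters of 3, and each cluster held called and uncalled genes. On chromosome 13, Irx2 went from 0.508 to 6.31 CPM in dopamine nuclei, 12.4-fold higher (7.95 to 20.6), and Irx4, a gene of the heart ventricle, from 1 UMI to 203 UMIs, or 2.95 CPM. The third gene of that cluster, Irx1, gave 2 UMIs in wt and 74 in mutant, with a log2 difference of 0.98 just under the rule. On chromosome 8, Irx5 went from 2.56 to 8.79 CPM, 3.43-fold higher (2.77 to 4.27), and Irx3 was at 0.660 and 1.19 CPM, within the rule. Irx6, on the same cluster, gave 12 UMIs in wt and 5 in mutant, and both levels were under 1 CPM.

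The POU genes divided by class. Pou4f1, a sensory neuron and habenula factor (chromosome 14, 104461676 to 104467999), gave 2 UMIs in wt and 489, or 7.11 CPM, in mutant dopamine nuclei, a ratio of 140 with an interval of 38.6 to 1160. Pou4f2, of retinal ganglion cells, gave 0 UMIs in wt and 219, or 3.19 CPM, in mutant, at least 41.8-fold higher. Pou4f3, of inner ear hair cells, gave 0 and 22 UMIs and stayed under 1 CPM.

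The class III POU genes, which act in neural progenitors and in differentiating neurons, did not share that pattern. Pou3f2 (chromosome 4, 22482780 to 22488366) gave 2884 UMIs, 73.2 CPM, in wt dopamine nuclei and 2152 UMIs, 31.3 CPM, in mutant, 2.34-fold lower (2.21 to 2.47). Within nuclei of 10 to under 20 dopamine tags per 10000 the call was lost, at a log2 difference of -0.31 against -1.20 over all dopamine nuclei. Of the dopamine nuclei, 59.3% in wt and 40.3% in mutant held a UMI of it. Pou3f3, its close paralog, was at 10.4 CPM in wt and 10.2 CPM in mutant, a ratio of 0.980 (0.866 to 1.11), an interval that does not reach the Pou3f2 ratio of 0.428. Pou3f1 was at 4.09 and 2.97 CPM and Pou3f4 at 1.83 and 0.698 CPM, and neither passed the rule. The ratio intervals of these last 2 genes were 0.588 to 0.898 and 0.259 to 0.558, both wholly under 1.

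Of the paired-like genes 5 were higher. Pitx1, of hindlimb and pituitary (chromosome 13, 55825051 to 55836192), gave 4 UMIs, 0.102 CPM, in wt dopamine nuclei and 1051 UMIs, 15.3 CPM, in mutant, 151-fold higher (58.6 to 554). Shox2, of limb and heart pacemaker (chromosome 3, 66971727 to 66981771), went from 0.330 to 17.9 CPM, 54.1-fold higher (31.5 to 102). Otp, of hypothalamic neurons, gave 2 UMIs in wt and 405, or 5.89 CPM, in mutant. These 3 were close to absent from wt dopamine nuclei, and a UMI of Pitx1 and of Shox2 was found in 26.4% and 29.3% of mutant dopamine nuclei.

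Prrx1, a limb and craniofacial mesenchyme factor, was already detected in wt at 2.08 CPM and was at 6.36 CPM in mutant, 3.05-fold higher (2.41 to 3.91). Alx1, a craniofacial gene, gave 0 UMIs in wt and 74 in mutant, at least 14.1-fold higher, and its log2 difference of 1.05 was close to the limit. With each nucleus weighted equally, neither Alx1 nor Prrx1 passed the rule.

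Uncx, a paired-like factor of somites and developing brain (chromosome 5, 139543494 to 139548179), went the other way. It gave 711 UMIs, 18.1 CPM, in wt dopamine nuclei and 508 UMIs, 7.39 CPM, in mutant, 2.44-fold lower (2.18 to 2.74). The share of dopamine nuclei that held a UMI of it was 35.2% in wt and 14.9% in mutant. With the constant of 5 CPM its log2 difference was -0.90, under the rule. Otx1, of cortex and sensory organs, was within the rule with 176 and 275 UMIs, found in 8.71% of wt and 7.62% of mutant dopamine nuclei. With each nucleus thinned to 5000 UMIs, these shares were 2.14% and 2.26%. Alx4 and Prrx2 stayed under 1 CPM in both libraries with 6 and 24 UMIs in wt, and so did Rax, an eye field gene with 2 and 8 UMIs. Vsx1, of retinal bipolar cells, gave 1 and 2 UMIs and Gsc, of the embryonic organiser, 0 and 7, too few for either call.

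Prox1, the Prospero factor of lymphatic endothelium and of many interneurons, was on in wt at 5.64 CPM and stood at 12.3 CPM in mutant dopamine nuclei, 2.19-fold higher (1.88 to 2.55). Its log2 difference of 1.01 lay on the limit, and centring on the median of all genes gave 0.99. In the 41 wt and 50 mutant other nuclei rich in oligodendrocyte markers (median depth 3490 and 3451.5 UMIs), Prox1 stood at 258 and 254 CPM. Without nuclei that carried over 5 glial or vascular marker UMIs per 10000, its difference in dopamine nuclei was 1.61. In those same 50 mutant nuclei 19 of the 23 higher members gave 0 UMIs, with a floor of 12.9 CPM for 3 UMIs, and Six3, Irx2 and Prrx1 gave 2, 1 and 1. Lhx2, Lhx4, Shox2, Pitx1 and Six3 were all above that floor in mutant dopamine nuclei.

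**Figure D2:**
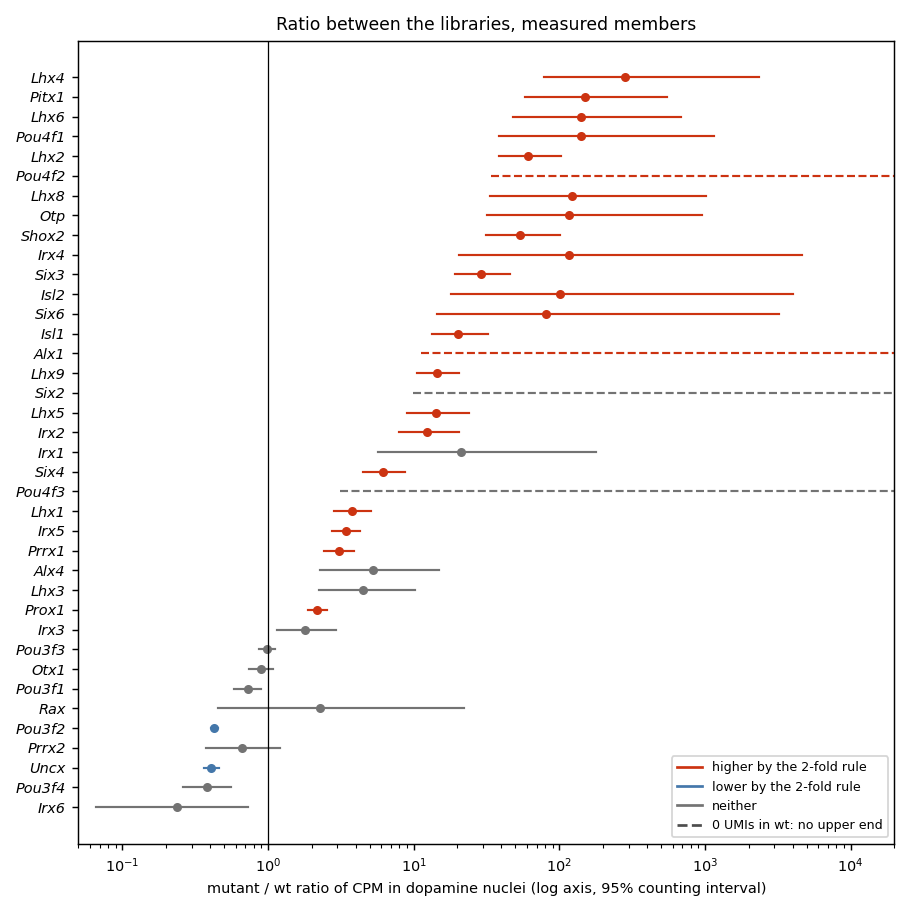
Ratio of mutant to wt CPM in dopamine nuclei for the 38 genes with enough UMIs, on a log axis, with the 95% counting interval as a bar, ordered by its lower end; dashed bars have 0 UMIs in wt and no upper end. Of the members 29 have an interval wholly above 1 and 5 an interval wholly below 1, among them Pou3f2 and Uncx.

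Other nuclei of wt midbrain separated the higher members into those already used by neighbouring cells and those hardly detected anywhere. The 23 genes summed to 17.2 CPM in wt dopamine nuclei and to 88.3 CPM in wt other nuclei. Of them 12 stood at 1 CPM or more in wt other nuclei (Lhx1, Lhx2, Lhx5, Lhx9, Isl1, Six3, Six4, Irx2, Irx5, Prrx1, Shox2 and Prox1), with a sum of 86.2 CPM there, 16.7 CPM in wt dopamine nuclei and 142 CPM in mutant dopamine nuclei. The other 11 (Lhx4, Lhx6, Lhx8, Isl2, Six6, Irx4, Pou4f1, Pou4f2, Alx1, Pitx1 and Otp) summed to 2.10 CPM in wt other nuclei, 0.457 CPM in wt dopamine nuclei and 71.5 CPM in mutant dopamine nuclei. The median log2 differences of these groups in dopamine nuclei were 2.35 and 2.71. In mutant dopamine nuclei, where these genes were chosen for being higher than in wt, 19 of the 23 stood above their level in wt other nuclei. That choice favours such a count, which is a description. The other 4 were Lhx1, Irx5, Prrx1 and Prox1, of which Lhx1 was at 9.08 CPM in wt other nuclei and 5.25 CPM in mutant dopamine nuclei.

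Within other nuclei, 9 members were higher in mutant (Lhx2, Lhx4, Lhx6, Lhx8, Lhx9, Pou4f1, Pitx1, Shox2 and Otp) and 1, Prrx1, was lower, beside 1.09% and 1.24% of all genes measured there. All 9 were among the 23 of the dopamine nuclei. With the constant of 5 CPM 2 of them, Pitx1 and Shox2, passed the rule, beside 0.220% of all genes. Their levels in mutant other nuclei, 2.11 to 12.4 CPM, lie below the 12.9 CPM that 3 UMIs are worth in the oligodendrocyte-rich nuclei, so a background of free RNA at these levels was not detectable there, and its part was not tested. Pitx1 gave 0 UMIs in wt other nuclei and 113, or 5.81 CPM, in mutant, at least 13.9-fold higher. Lhx2 was at 3.21 and 11.3 CPM, 3.50-fold higher (2.27 to 5.64), and Shox2 at 1.82 and 9.30 CPM, 5.12-fold higher (2.92 to 9.80). Isl1 and Irx5, at 4.89 and 9.78 CPM in wt other nuclei, were at 4.88 and 9.35 CPM in mutant. With the split moved to 10 dopamine tags per 10000, which puts more nuclei that carry dopamine tags into the other class, 15 members were higher there. The share of all genes was 1.33%. Within nuclei under 1 dopamine tag per 10000, 6 members were higher, beside 1.92% of all genes.

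Prrx1 was at 12.6 CPM in wt and 5.45 CPM in mutant other nuclei, 2.31-fold lower (1.72 to 3.09), opposite to its direction in dopamine nuclei. Of the glial markers, 3 of 5 oligodendrocyte and 3 of 5 astrocyte markers were also lower in mutant other nuclei. Their sums went from 543 to 266 and from 344 to 205 CPM, and no marker of either list was at 0. The microglia and oligodendrocyte precursor sums went from 63.4 to 55.0 and from 71.1 to 61.6 CPM, with no marker called. Vascular markers went the other way, from 21.5 to 36.7 CPM, with 1 of 5 higher. Without nuclei over 5 glial or vascular marker UMIs per 10000 the Prrx1 log2 difference in other nuclei turned from -1.07 to 0.38. With a shorter list of such markers it was -0.59. The call was also absent with the split at 3 or at 10 tags, so it rests on which nuclei were kept.

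Along bins of dopamine tags the summed level of the 23 members went down in wt and did not in mutant. In wt the sum of the 23 members was 120 CPM in nuclei with no dopamine tag, 114 CPM at under 1 tag per 10000, 68.2 at 1 to 3, 57.1 at 3 to 5, 36.6 at 5 to 10, 31.0 at 10 to 20, 11.02 at 20 to 40 and 0.838 CPM in the 58 nuclei at 40 or more. In mutant it was 146 CPM with no tag, 135 at under 1, 149 at 1 to 3, 134 at 3 to 5, 196 at 5 to 10, 224.1 at 10 to 20 and 199 CPM at 20 to 40. The gap at 5 tags and above follows from the choice of these 23 genes in those nuclei and is a description. In nuclei without a tag Prox1 made up 40.3 of the wt and 35.4 of the mutant sum. Some single members lay apart there: Lhx9 was at 1.78 CPM in wt and 14.3 CPM in mutant, and Shox2 at 1.78 and 11.8 CPM. Each of these wt values rests on 3 UMIs. Others lay close in the same nuclei: Six3 was at 10.1 and 10.9 CPM and Lhx1 at 7.70 and 8.68 CPM. Lhx4, at 0 UMIs in most wt bins, stood at 1.36 CPM in mutant nuclei without a tag, 5.86 at 1 to 3 tags, 8.34 at 3 to 5, 12.6 at 5 to 10, 15.8 at 10 to 20 and 12.2 CPM at 20 to 40. Pitx1 went along the same mutant bins from 1.02 to 9.91, 10.5, 13.7 and 16.5 CPM, and to 13.0 CPM at 20 to 40.

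Pou3f2 showed no such order below 5 tags, where it ranged from 9.34 to 20.7 CPM in wt and from 8.76 to 18.1 CPM in mutant, with the highest value in nuclei without a tag. From there on it stood higher with more tags in either library. In wt it stood at 15.3 CPM at 5 to 10 tags, 42.7 at 10 to 20 and 88.4 CPM at 20 to 40, and in mutant at 22.0, 34.3 and 38.4 CPM. The libraries fill these bins differently, with 802 of 1320 wt but 504 of 2875 mutant dopamine nuclei at 20 to 40. Within nuclei of 10 to under 20 tags alone, where Pou3f2 lost its call, Uncx, at 17.0 and 7.52 CPM, kept a difference of -1.08. In the same bin Irx5, Lhx1, Prox1 and Prrx1 no longer passed the rule, and 20 members were higher. At 20 to 40 tags Uncx was at 19.4 CPM in wt and 8.85 CPM in mutant. At 5 to 10 tags it was at 7.48 and 6.52 CPM.

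**Figure D3:**
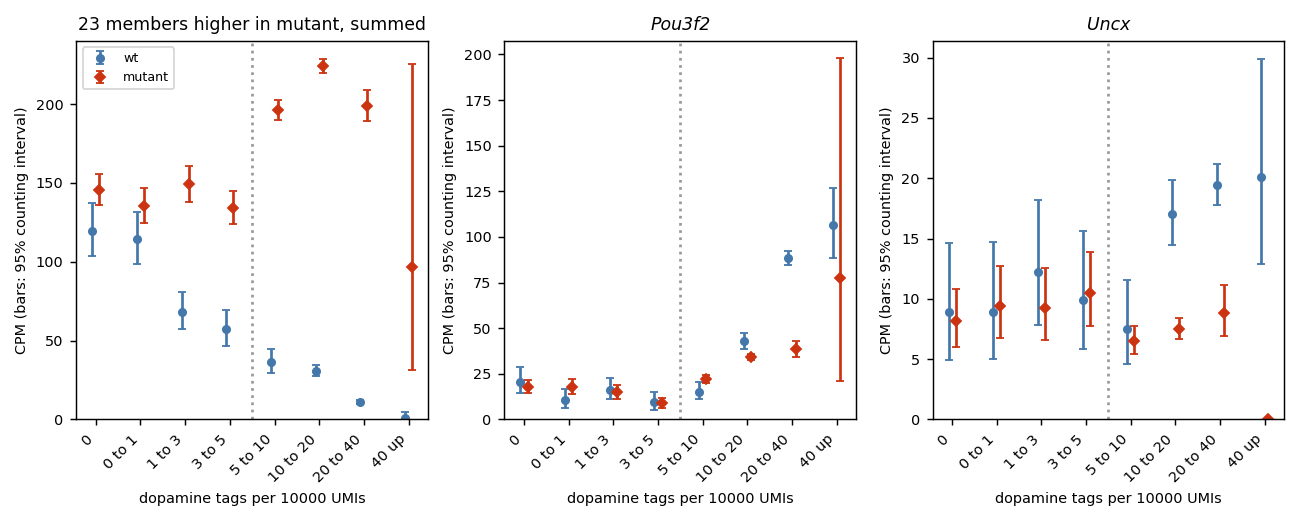
Summed level of the 23 higher members (left), Pou3f2 (middle) and Uncx (right) in CPM, in bins of dopamine tags per 10000 UMIs, with the 95% counting interval; the dotted line is the limit of 5 between other and dopamine nuclei. The 23-gene sum drops from 120 to 0.838 CPM along the wt bins and stays at 96.6 CPM or more in mutant, where the last bin holds 7 nuclei, and the intervals of Pou3f2 and of Uncx do not overlap between 10 and 40 tags.

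Dopamine neurons of the midbrain fall into subtypes, which Sox6 (ventral substantia nigra) and Calb1 (dorsal nigra and tegmental area) help to mark. Nuclei with a Sox6 tag made up 70.4% of wt and 69.6% of mutant dopamine nuclei, and nuclei with a Calb1 tag 54.4% and 42.3%. Pou3f2 was at 82.8 CPM in wt and 34.7 CPM in mutant nuclei with a Sox6 tag, and at 31.4 and 16.6 CPM in those without. By Calb1 it was at 54.7 and 25.7 CPM with a tag and at 102 and 36.5 CPM without. Uncx was at 18.5 and 7.41 CPM with a Sox6 tag and at 15.9 and 7.32 CPM without, so neither gene's difference was limited to 1 of these subsets. The sum of the 23 higher members was 17.7 and 220.9 CPM in nuclei with a Sox6 tag and 14.7 and 180 CPM in those without. Otx1 was at 12.4 CPM in wt nuclei with an Otx2 tag and 2.70 CPM in those without, and in mutant at 6.19 and 3.56 CPM. A tag is more often found in a deeper nucleus: wt nuclei with a Sox6 tag had a median of 28076 UMIs and those without 17130.

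To compare single nuclei, each was thinned to 5000 UMIs, which left out 60 of 1320 wt and 90 of 2875 mutant dopamine nuclei. At least 1 of the 23 members was then found in 5.71% of wt (4.50 to 7.14) and 59.5% of mutant dopamine nuclei (57.7 to 61.4). At least 2 were found in 0.317% and 26.2%, and at least 3 in 0.0794% and 8.73%. In other nuclei the shares with at least 1 were 31.6% and 42.6%. Unthinned, 21.8% of wt and 85.6% of mutant dopamine nuclei held at least 1, with a median of 0 and 3 and a maximum of 6 and 16 members per nucleus. Thinned to 2000 UMIs, 31.9% of mutant dopamine nuclei did. These shares describe genes chosen for being higher in these nuclei, and free RNA's part in them was not tested.

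Single members were compared at the same depth. Tags of Lhx2 were in 0.397% of the wt and 12.5% of the mutant dopamine nuclei, those of Shox2 in 0.0794% and 8.62%, Six3 in 0.238% and 7.58%, and Isl1 in 0.0794% and 5.96%. Pitx1 and Lhx4 were found in 0 of 1260 wt nuclei, which at this depth allows a share of nuclei with a UMI of up to 0.238%, and in 7.29% and 6.18% of mutant nuclei. Unthinned, a UMI was found in 0.303% of wt dopamine nuclei for Pitx1 and 0.152% for Lhx4. For Pou3f2 the shares were 26.9% in wt and 14.0% in mutant, and for Uncx 8.10% and 4.09%. Pou3f3, at 5.56% and 4.85%, had overlapping intervals.

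**Figure D4:**
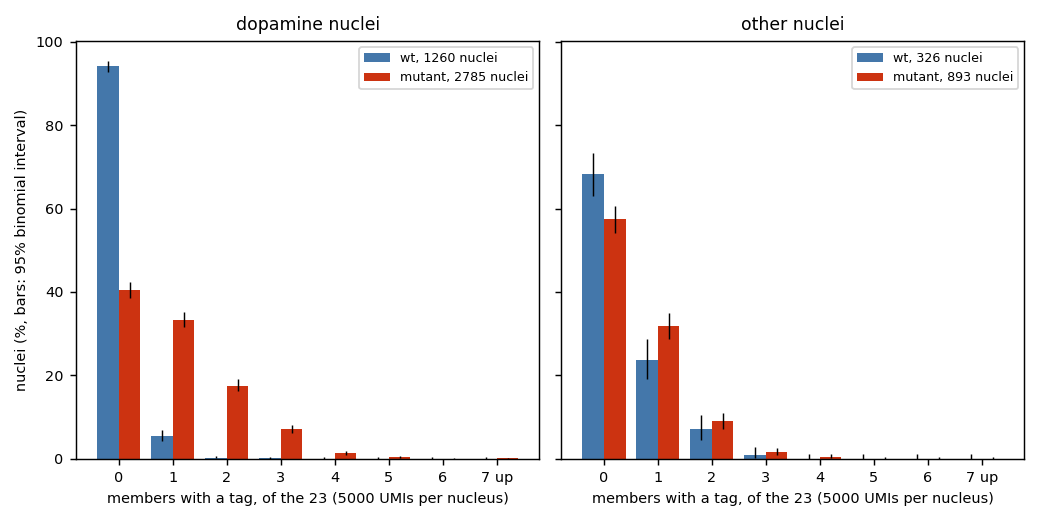
Share of nuclei (percent, with 95% binomial intervals) by the number of the 23 higher members with a tag, each nucleus thinned to 5000 UMIs, in dopamine nuclei (left) and other nuclei (right). In dopamine nuclei 94.3% of wt hold none, whereas 59.5% of mutant nuclei hold at least 1, and in other nuclei the libraries lie nearer, at 31.6% and 42.6% with at least 1.

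Members differed in the company they kept within mutant dopamine nuclei at 5000 UMIs. Nuclei with a tag of any Hox gene, homeobox genes of the hindbrain and spinal cord that are no members here, numbered 1878, and 907 had none. At least 1 higher member was found in 67.0% of the former and 44.0% of the latter. Isl1 was found in 7.99% (6.80 to 9.31) against 1.76% (1.01 to 2.85), Six3 in 9.53% against 3.53%, and Irx4 in 30 against 2 nuclei. Lhx6, at 4.95% and 4.74%, and Pou4f1, at 3.89% and 3.09%, had overlapping intervals. Of the 2 lower members, Uncx was found in 3.41% (2.63 to 4.33) of nuclei with a Hox tag and 5.51% (4.12 to 7.20) of those without. These intervals overlap narrowly, which does not show the shares to be equal. Pou3f2 was found in 15.9% (14.3 to 17.7) and 10.0% (8.16 to 12.2).

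Transmitter genes gave a second split of the same nuclei. At least 1 higher member was found in 68.8% of nuclei with a tag of Gad1, the enzyme that makes GABA, and in 55.1% of those without. For Slc6a5, the glycine transporter, the shares were 70.3% and 55.6%. For Slc17a6, the vesicular glutamate transporter of tegmental dopamine neurons, the order was the other way, with 49.6% in the 367 nuclei with a tag and 61.0% in those without. Isl1 followed the same order, at 2.45% and 6.49%. These are nuclei of 1 library that share a pool and free RNA, so the shares describe it and are not replicated.

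Some relatives outside the list were examined as well. Dmbx1, a paired-like gene of the embryonic midbrain, gave 0.0762 CPM in wt and 5.14 CPM in mutant dopamine nuclei, 67.4-fold higher (22.9 to 328). Pitx3, needed for nigral dopamine neurons, went from 18.1 to 6.33 CPM, 2.85-fold lower (2.53 to 3.22). The LIM genes Lmx1a and Lmx1b, which specify dopamine neurons, stayed within the rule at 115 and 143 CPM in wt and at 101 and 109 CPM in mutant.

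Of 20 genes for cofactors of LIM and SIX-class proteins, 1 was higher and 1 lower. The higher one, Lmo2, a LIM-only protein, went from 4.82 to 11.5 CPM, and the lower one, Lmo4, from 60.3 to 28.1 CPM, 2.15-fold lower (2.02 to 2.28). The other 18, which hold the LIM-domain binding and Eya genes, did not pass the rule. The PRC2 core list of 4 genes held no call. In dopamine nuclei 4 of the 12 transmitter genes measured were higher, among them Gad1, from 4.29 to 99.4 CPM, and Slc6a5, from 0.127 to 73.4 CPM. The summed GABAergic markers went from 34.0 to 179 CPM in the same nuclei as the 23 members, and the part of such nuclei in the members' levels was not tested.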

How the data were processed

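Single-nucleus RNA from sorted midbrain nuclei was measured as UMI counts per gene and nucleus, deposited by the authors as 1 table of 23481 genes and 5740 nuclei whose column names carry the library. Cell Ranger 3.1.0 and the build mm10 are named per the submitters' processing notes, and the aligner settings, the filters on nuclei and the use of strand are not given in the sources used here. Nuclei were used as deposited and no doublets were removed; an alternative leaves out the deepest 5% of nuclei. Counts were summed per library and class, and expressed per 1000000 UMIs of the class (CPM). A difference is log2(CPM + 1), mutant minus wt, called at 2-fold with at least 10 UMIs. Ratio intervals are exact (Clopper-Pearson) at 95%, and floors are 3 UMIs over the class. With 1 library a genotype there was no test and no p-value. Genes named are all members, with some relatives from set lists; the other relatives are not reported here. The members and lists were chosen with earlier results of these data known. Nuclei were thinned to 5000 UMIs with a fixed seed. The fold rule and the ratio intervals were run on simulated data, and the thinning was not. Positions are from GENCODE M21 (mm10) and promoters from RefSeq (GRCm38.p6). Python 3.11.15, numpy 2.4.6, scipy 1.17.1 and pandas 2.3.3 were used. Alternatives covered the constant, the fold rule, the UMI minimum, the split, centring, per-nucleus weighting, depth, glial nuclei and subsets of dopamine nuclei.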

Additional observations from a re-analysis of the deposited data

Results flagged for a closer look

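Prrx1 was the 1 member whose calls went in opposite directions in the 2 classes of nuclei. Its log2 difference, mutant minus wt, was 1.26 in dopamine nuclei and -1.07 in other nuclei. The difference between the classes was not tested, since each class holds 1 library per genotype. Oligodendrocyte and astrocyte marker sums were also lower in mutant other nuclei, whereas the vascular marker sum was higher. Without nuclei over 5 glial or vascular marker UMIs per 10000, the Prrx1 value in other nuclei was 0.38, and with a shorter list of such markers -0.59, so the opposite calls do not hold there.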

How the results depend on the processing

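No paired analysis was possible because each genotype is 1 library whose lanes are merged in the deposited table, and for the same reason no replicate could be left out. In dopamine nuclei the count of higher members was 20 to 27 in the alternatives other than the constant of 5 CPM. The share of all genes higher ran there from 1.49% to 3.57%. The constant of 5 CPM gave 13 higher and 1 lower (Uncx lost), beside 0.777% and 0.244% of all genes. Of the 2 lower members, 1 was left in nuclei of 10 to under 20 dopamine tags per 10000 (Pou3f2 lost), where 2.45% of all genes were lower. That alternative was chosen after seeing the data, like those with a Sox6 tag, under 1 tag and with the shorter glial list. Of the 23 higher members, Prox1 was lost with the split at 3 tags, with centring and in nuclei with a Sox6 tag. In other nuclei the 9 higher members became 2 with the constant of 5 CPM and 15 with the split at 10 tags. The shares of all genes were 0.220% and 1.33%. Lower members there numbered 1 (Prrx1) in the values reported, 2 (with Prrx2) with the constant of 0.5 CPM and the 1.5-fold rule, 2 others (Otx1 and Prrx2, Prrx1 lost) with per-nucleus means, 1 other (Isl1, Prrx1 lost) in nuclei under 1 tag, and 0 with the constant of 5 CPM, the splits at 3 and 10 tags, the split by Slc18a2 and Ddc, and without glial nuclei under either list. Prrx1 in other nuclei turned to 0.38 on the log2 scale without glial nuclei. The share of mutant dopamine nuclei with a higher member, 59.5% at 5000 UMIs, was 31.9% at 2000 UMIs and 85.6% unthinned. Depth limits the low genes most: 1 UMI is 0.0254 CPM in wt dopamine nuclei and 0.14 CPM in wt other nuclei.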
